A study of Rattus norvegicus with 8 samples.

Results

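The genes described here encode the core of the TGF-beta pathway: the ligands Tgfb1, Tgfb2 and Tgfb3, the receptors Tgfbr1, Tgfbr2 and Tgfbr3, and the signal carriers Smad2, Smad3, Smad4 and Smad7. They were chosen by name, with earlier results of these data known. Every probe set (the group of short probes that reads a transcript on the array) that carried 1 of these symbols and no other was taken. This gave 16 of the 31099 probe sets on the array, for 9 of the 10 genes, out of 14217 genes that the array names this way. Tgfbr2 had no probe set with its symbol alone and was not analysed here. Of the 16 probe sets, 12 (for 8 genes) passed a minimum of brightness and were tested, and 4 were too dim.

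Testes came from adult Sprague-Dawley rats in 3 groups. Untreated rats gave 3 control arrays, and rats given Adjudin by gavage, once, at 50 mg/kg of body weight gave 2 arrays at 8 h and 3 arrays at 4 d. Adjudin is an indazole compound known for detaching developing germ cells from Sertoli cells, the somatic nurse cells of the seminiferous tubule. RNA of whole frozen testis was hybridised to Affymetrix arrays, 1 array per sample, and no group given the vehicle alone is named. The labels do not say that each array came from its own animal, and p-values here therefore speak of the spread between arrays, part of which may be technical.

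TGF-beta ligands are secreted in a latent form, held by a propeptide and by latent TGF-beta binding proteins in the matrix, and are released by proteases and integrins. The free ligand binds Tgfbr2, often presented by the coreceptor Tgfbr3 (betaglycan), and Tgfbr2 switches on the kinase of Tgfbr1. Tgfbr1 phosphorylates Smad2 and Smad3, which join Smad4 and enter the nucleus, whereas Smad7 blocks the receptor. In the testis Tgfb3 is known for opening the tight junctions between Sertoli cells that form the blood-testis barrier, in part through the p38 kinase branch of the pathway.

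Among the members tested, Tgfb3 alone rose, at 4 d (log2 change 0.92, SE 0.17, limma adjusted p = 0.00937), and no member passed the test at 8 h. Tgfb1, Tgfb2, the receptors and the Smads did not pass the test at either time. The stretch just before the start of transcription is shown for Tgfb3, which changed, and for Tgfb1, its close relative, which did not pass the test. Both are the 250 bases upstream of the RefSeq start on the rat assembly GRCr8, on the strand of the gene: chr6:111456947-111457196, minus strand, for Tgfb3 and chr1:90324062-90324311, plus strand, for Tgfb1. Capitals mark the only matches to the 10 motifs searched, both in Tgfb1.

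Tgfb3: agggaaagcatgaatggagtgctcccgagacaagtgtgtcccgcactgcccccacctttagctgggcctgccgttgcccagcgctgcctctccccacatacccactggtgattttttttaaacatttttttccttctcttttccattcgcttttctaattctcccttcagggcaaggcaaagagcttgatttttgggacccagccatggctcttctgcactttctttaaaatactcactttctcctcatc
Tgfb1: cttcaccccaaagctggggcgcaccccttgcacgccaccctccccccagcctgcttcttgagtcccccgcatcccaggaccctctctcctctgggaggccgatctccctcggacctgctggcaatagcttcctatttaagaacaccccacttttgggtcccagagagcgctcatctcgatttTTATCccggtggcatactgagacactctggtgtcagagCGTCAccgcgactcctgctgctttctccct

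Guanine and cytosine made up 48.8% of the Tgfb3 stretch and 60% of the Tgfb1 stretch. The motifs were searched on both strands, and the share of 33465 rat promoters of the same length that hold each is given with it. They were CAGAC, a Smad-binding element (42.9%), CCAAT, bound by NF-Y (34%), GGGCGG, a GC box (30.5%), ACAAT, a SOX motif (30%), GATAA, for factors of the GATA family (23.5%) and TGACG, a cAMP response half-site (18.2%). The others were TATAAA, a core promoter element (12.9%), TGANTCA, an AP-1 site (6.34%), AAGGTCA, an SF-1 motif (3.99%) and TGACGTCA, the full cAMP response element (1.59%), which holds the half-site. The Tgfb3 stretch held 0 of the 10, while the Tgfb1 stretch held GATAA and TGACG, each on the opposite strand, ending 64 and 26 bases before the start. The same stretch of Tgfb2, a ligand that did not pass the test either, also held 0 of the 10. A match is a run of letters and not a measured site, and the absence of a match says nothing of the factor.

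Values below are signals per probe set, scaled so that every array had the same trimmed mean of 500, and log2 changes are differences in log2(scaled signal + 32). Tests are those of limma over all 19785 probe sets tested, with Benjamini-Hochberg adjustment and a threshold of 0.05. The share of probe sets with a scaled signal of 100 or more was 51.6% to 59.0% per array. It was lowest on the 3 arrays that the settings files place in run 3, 1 of 3 hybridisation days. Control 1, 8 h 1 and 4 d 1 belong to run 1. Control 2 and 4 d 2 belong to run 2. Control 3, 8 h 2 and 4 d 3 belong to run 3. On the arrays of run 3, 8 of the 12 member probe sets read lower than on run 1 in all 3 groups, against 36.2% of all probe sets, and 5 of the 12 differed between runs past the threshold, against 19.5% of all. Values within runs, and from a fit with the run as a block, are therefore given where they change a call.

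Tgfb3 (1367859_at) read 313, 280 and 219 on the control arrays, 316 and 278 on the 8 h arrays, and 505, 607 and 504 on the 4 d arrays. Every 4 d array was above every control and 8 h array, and the 8 h arrays lay among or just above the controls. The group means were 271 ± 47.7 (SD, n = 3) in controls, 297 ± 27.0 (SD, n = 2) at 8 h and 539 ± 58.7 (SD, n = 3) at 4 d. At 4 d the level was 1.90-fold that of controls, with a 95% interval of 1.45 to 2.48. Within runs 1, 2 and 3 the log2 difference was 0.64, 1.03 and 1.10, so all 3 pairs of arrays from the same day showed the rise. The call held without each single array (adjusted p 0.0147 to 0.0419) and with the run as a block (adjusted p = 0.00108). It was lost when all arrays of run 1 (log2 change 1.06, adjusted p = 0.112) or of run 2 (0.87, adjusted p = 0.105) were left out, which leaves 2 arrays per group at 4 d and control.

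At 8 h the log2 change of Tgfb3 against control was 0.13 (SE 0.19, 95% interval -0.30 to 0.56), with an adjusted p of 1.00. Directly compared, Tgfb3 was higher at 4 d than at 8 h by a log2 of 0.79 (SE 0.19, adjusted p = 0.0421, and 0.0128 with the run as a block). Within runs 1 and 3, the runs that held both groups, the difference was 0.63 and 0.79. This smaller comparison was past the threshold without control 3 (adjusted p = 0.0253) and lost without any other single array (0.0503 to 0.255). The 4 d and 8 h comparisons share the 3 control arrays.

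Tgfb1 (1370082_at), the ligand best known from matrix deposition and immune control, read 378, 377 and 169 in controls, 345 and 335 at 8 h, and 308, 313 and 174 at 4 d. The arrays of control 3 and 4 d 3, both of run 3, stood low, and the groups overlapped except that both 8 h arrays were above the 4 d arrays. The log2 change was -0.16 (SE 0.31, 95% interval -0.84 to 0.52, adjusted p = 0.828) at 4 d and 0.21 (SE 0.34, 95% interval -0.56 to 0.97) at 8 h. Its run term passed the threshold (adjusted p = 0.0486).

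Tgfb2, a ligand with roles in organ development, was near the minimum of brightness. Its brighter probe set (1388011_a_at) read 92.8, 120 and 147 in controls, 114 and 95.2 at 8 h, and 111, 77.2 and 111 at 4 d, and these ranges overlapped. The log2 change at 4 d was -0.20 (SE 0.25, 95% interval -0.75 to 0.35, adjusted p = 0.711). The other (1387172_a_at) reached a signal of 100 on no array and was not tested, with 5.40 to 34.8 in controls and 18.4 to 47.8 at 4 d.

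**Figure D1:**
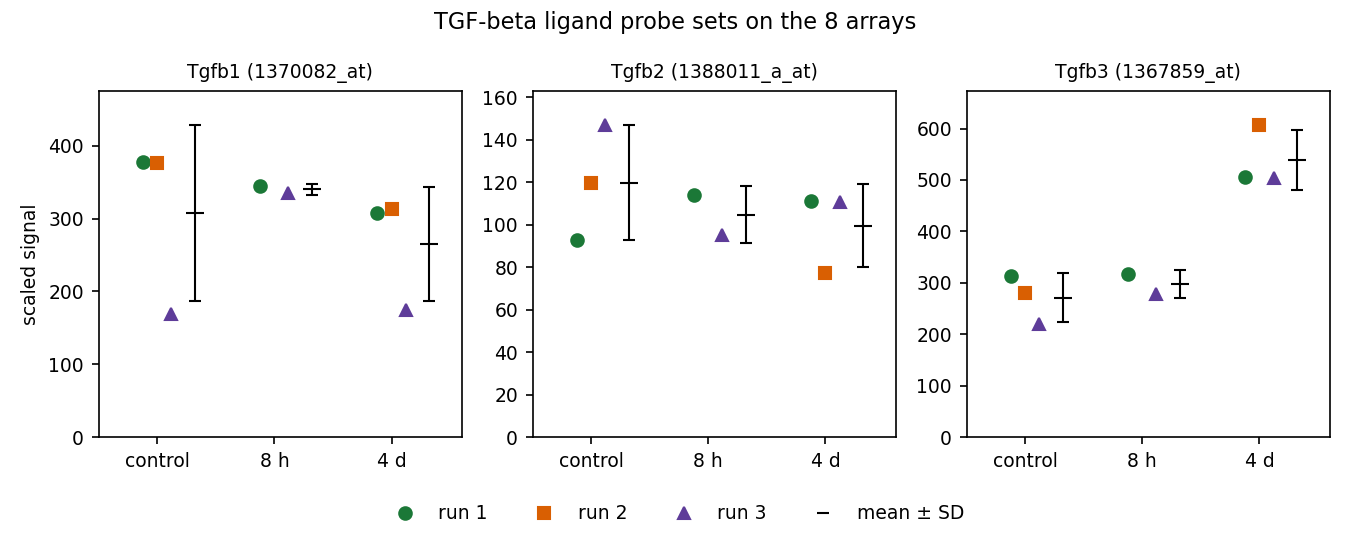
Scaled signal (vertical axis, from 0) of the tested ligand probe sets on each of the 8 arrays, by group, with the symbol giving the hybridisation run and the bar the group mean with its SD. The 4 d arrays of Tgfb3 sit between 504 and 607, above all other arrays, whereas Tgfb1 is low on control 3 and 4 d 3 and Tgfb2 overlaps between groups.

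Tgfbr1, the type I receptor kinase, was read by 2 probe sets, neither of which passed the test. On 1376636_at the signals were 574, 537 and 439 in controls, 645 and 568 at 8 h, and 641, 601 and 661 at 4 d. The 4 d arrays were all above the controls, but the log2 change of 0.29 (SE 0.15, 95% interval -0.04 to 0.62) did not pass the test (adjusted p = 0.292). On 1369504_at the signals were 203, 177 and 60.2 in controls, 196 and 58.8 at 8 h, and 163, 168 and 52.4 at 4 d. Here the low array of each group was that of run 3, with a mean difference to run 1 of -1.30 on the log2 scale (run term adjusted p = 0.00337). The log2 change at 4 d was -0.15 (SE 0.49, 95% interval -1.25 to 0.94, adjusted p = 0.906), and this wide interval holds that of 1376636_at.

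Tgfbr3, betaglycan, which also carries inhibin to activin receptors, read 424, 448 and 272 in controls, 506 and 174 at 8 h, and 321, 366 and 236 at 4 d on 1369219_at. On 1387484_at it read 292, 257 and 166 in controls, 200.1 and 75.8 at 8 h, and 256, 186 and 89.6 at 4 d. The groups overlapped on both, and the lowest array in each group was again that of run 3. At 4 d the log2 change was -0.27 (SE 0.34, adjusted p = 0.711) on 1369219_at. On 1387484_at it was -0.43 (SE 0.38, 95% interval -1.27 to 0.42, adjusted p = 0.581). At 8 h, 1387484_at gave the lowest value among the members, -0.74 (SE 0.42, 95% interval -1.69 to 0.21, adjusted p = 1.00), with -0.48 within run 1 and -0.87 within run 3.

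Smad2, a carrier that Tgfbr1 phosphorylates, read 614, 657 and 573 in controls, 528 and 630 at 8 h, and 645, 786 and 744 at 4 d. The 4 d arrays overlapped with the controls at the lower end, and the log2 change was 0.22 (SE 0.14, 95% interval -0.10 to 0.54, adjusted p = 0.407). Smad3, its partner, read 437, 537 and 273 in controls, 398 and 364 at 8 h, and 372, 433 and 370 at 4 d on 1389127_at, with a log2 change at 4 d of -0.04 (SE 0.22, adjusted p = 0.952). On the dimmer 1369528_at it read 193, 174 and 55.4 in controls, 101 and 89.4 at 8 h, and 70.6, 129 and 45.0 at 4 d, with a log2 change of -0.56 (SE 0.40, 95% interval -1.46 to 0.34, adjusted p = 0.475). The groups overlapped on both Smad3 probe sets, and the wide interval of 1369528_at holds changes in either direction.

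Smad4, the shared partner of the pathway's Smads, was read by 2 probe sets whose values went opposite ways at 4 d. On 1367910_at the signals were 760.1, 856 and 460.0 in controls, 744 and 682 at 8 h, and 533, 601 and 395 at 4 d, a log2 change of -0.39 against control (SE 0.23, adjusted p = 0.369). On 1386984_at they were 531, 436 and 519 in controls, 461 and 519 at 8 h, and 595, 579 and 581 at 4 d, a log2 change of 0.23 (SE 0.14, adjusted p = 0.380). The 4 d arrays were all above the controls on 1386984_at, while on 1367910_at the groups overlapped but 4 d lay below control within each run (-0.49, -0.49 and -0.20). Between 4 d and 8 h, 1367910_at differed by -0.48 (adjusted p = 0.387), and with the run as a block this was -0.62 and passed the test (adjusted p = 0.0221). The same comparison on 1386984_at gave 0.24 (adjusted p = 0.487), so the 2 probe sets do not give Smad4 one direction.

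**Figure D2:**
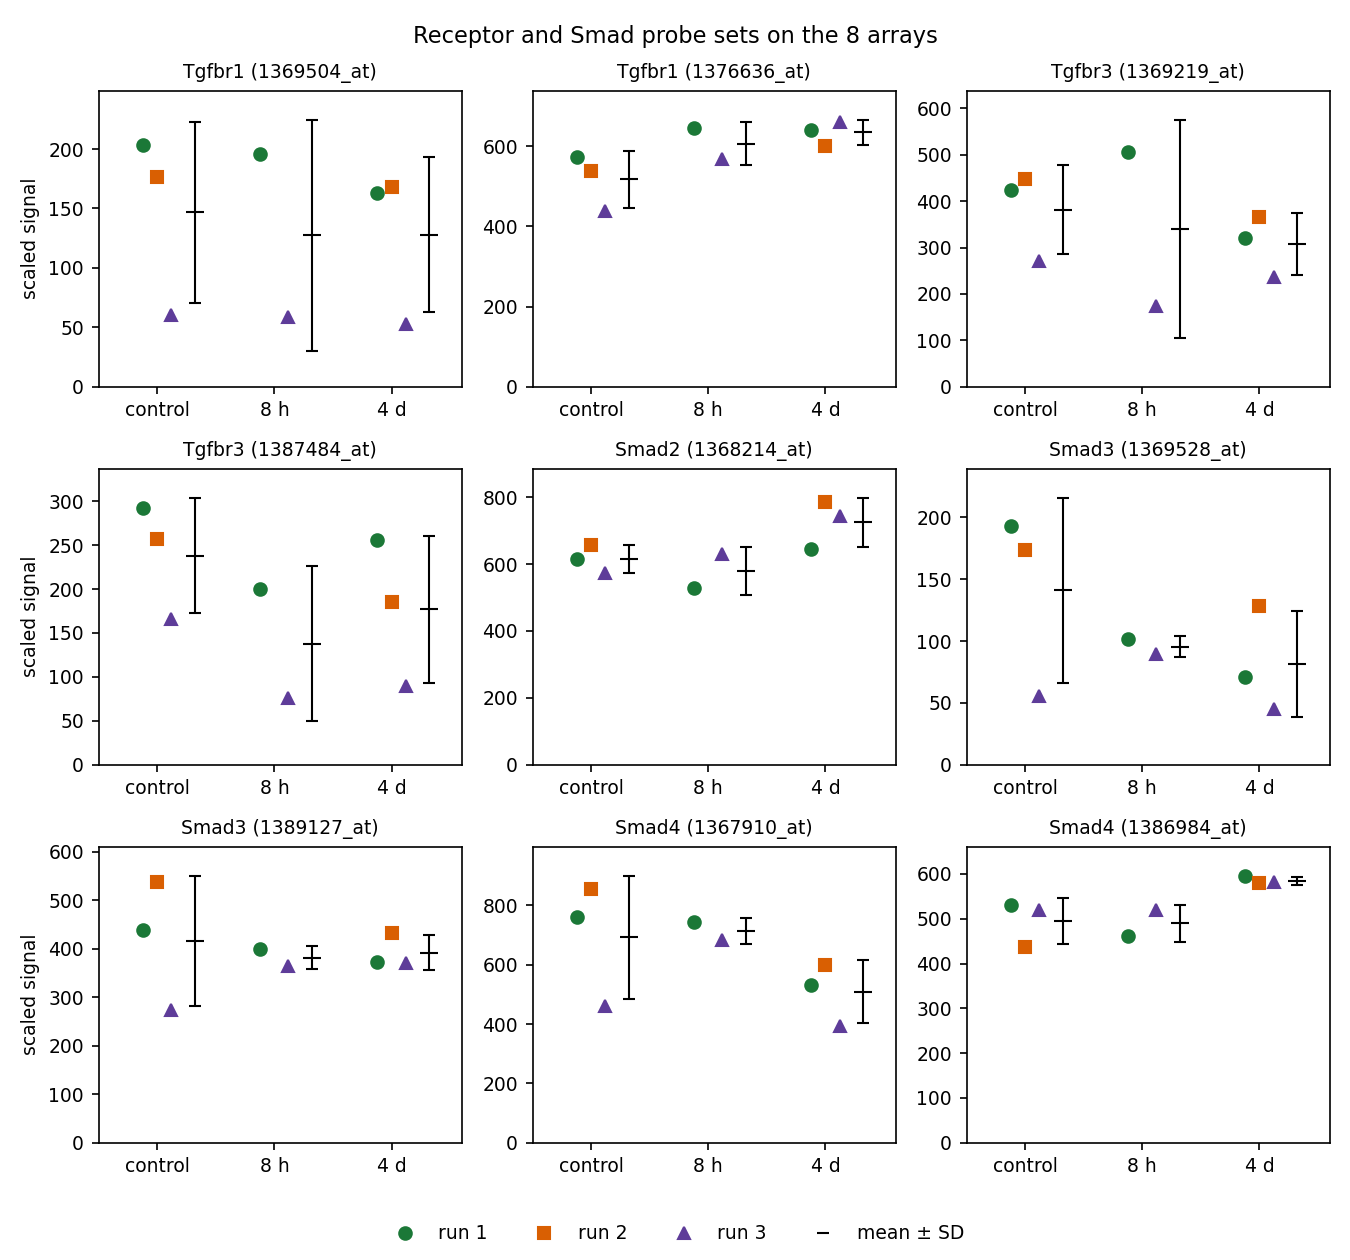
Scaled signal (vertical axis, from 0) of the 9 tested receptor and Smad probe sets on each array, by group, with the symbol giving the run and the bar the mean with its SD. On Tgfbr1 1369504_at the arrays of run 3 read 52.4 to 60.2 in all groups, and the Smad4 probe sets shift opposite ways at 4 d without passing the test.

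Smad7, the inhibitor that the pathway itself switches on in many cells, was dim on its 3 probe sets. The signals ranged from 16.6 to 58.0 on 1368896_at, from 32.8 to 92.2 on 1368897_at and from 9.0 to 110.0 on 1368898_at. A single array (8 h 1 on 1368898_at) reached 100, so Smad7 was not tested and only a bound can be given.

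Over the 12 tested probe sets, 1 rose and 0 fell at 4 d by limma, where 6.16% of all probe sets rose and 3.73% fell. At an unadjusted p under 0.05 the same 1 of 12 passed (4498 of all 19785). The median log2 change of the 12 was -0.15, beside 0.04 over all probe sets. The 4 d arrays were all above the controls for 3 of the 12 (Tgfb3, Tgfbr1 1376636_at and Smad4 1386984_at), where 17.5% of all probe sets did this, and all below for 0, where 11.8% did. Blocking on the run left the counts of rises and falls at 1 and 0, where 13.3% of all rose and 9.19% fell. At 8 h, 0 rose and 0 fell, where 0.0657% of all rose and 0% fell. The 8 h arrays were all above the controls for 0 of the 12 (7.32% of all) and all below for 0 (7.62% of all). At an unadjusted p under 0.05, 0 of the 12 passed at 8 h (773 of all), and the lowest adjusted p in the fit that blocks on the run was 0.316. Between 4 d and 8 h, 1 was higher (3.58% of all) and 0 lower (2.47% of all), and the block kept Tgfb3 as higher (8.57% of all) and added Smad4 1367910_at as lower (7.09% of all). The 4 d arrays were all above the 8 h arrays for 3 (Tgfb3, Smad2 and Smad4 1386984_at, 21.2% of all) and all below for 2 (Tgfb1 and Smad4 1367910_at, 13.9% of all).

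**Figure D3:**
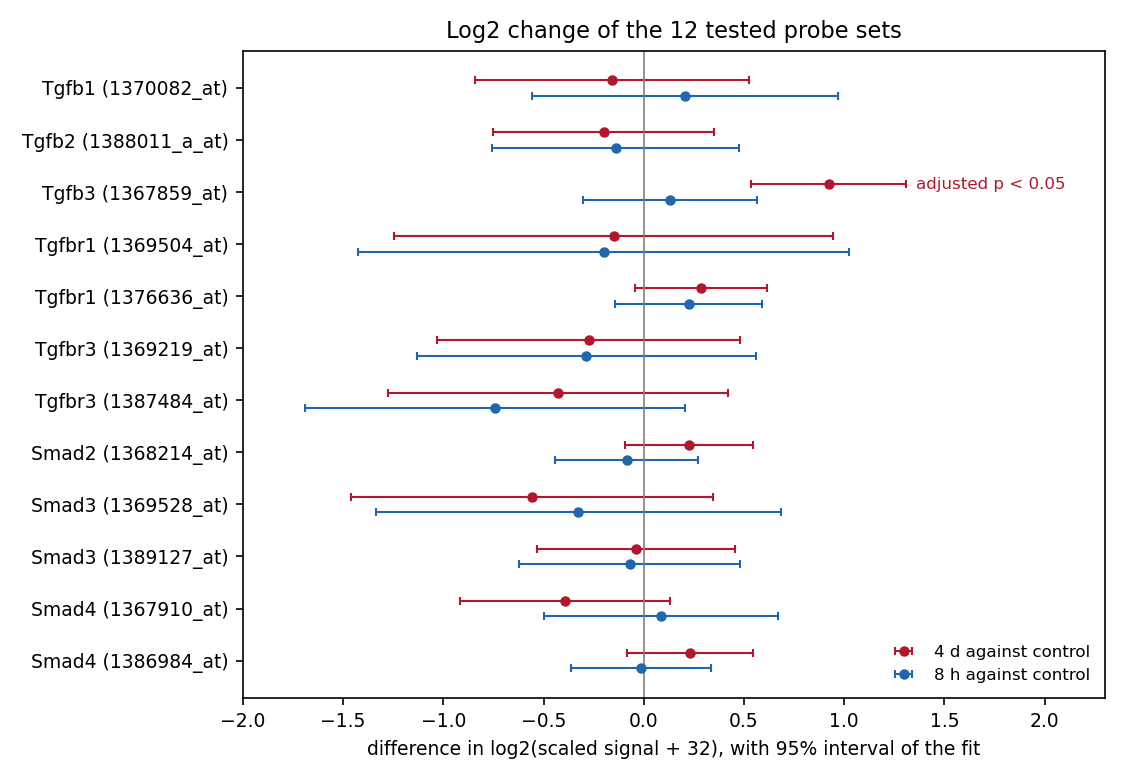
Log2 change (horizontal axis, difference in log2 of scaled signal plus 32) of the 12 tested probe sets at 4 d and at 8 h against control, with the 95% interval of the fit. Tgfb3 at 4 d, at 0.92, is the single value past the threshold, and the intervals of the other 11 at 4 d and of all 12 at 8 h include 0.

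Markers of other cell types moved at 4 d as well. For each list the signals of its markers were summed on each array, and the lowest and highest sum of a group are given. In whole tissue, fewer cells of a type and less RNA per cell cannot be told apart. Markers of the labelled tissue were present, with no listed marker at 0 on any array. The counts called at 4 d stand beside 7.63% of all genes risen and 5.19% fallen by limma. With the block on the run these shares were 15.3% and 11.9%. An unadjusted limma p under 0.05 at 4 d was found for 4498 of all 19785 probe sets. Control arrays summed to 10738 to 11324 over 10 leukocyte markers, 8 h arrays to 10324 to 11587 and 4 d arrays to 14298 to 16733, and 6 rose and 1 (Aif1) fell at 4 d, with Ptprc, C1qb and Mrc1 added as risen by the block on the run. For 6 Sertoli markers the sum spanned 21100 to 25275, 23840 to 26506 and 30947 to 41098 for control, 8 h and 4 d arrays. Of these markers 1 rose (Cldn11) and 1 fell (Rhox5), and the block added Clu and Dhh as risen. The Sertoli sum came mostly from Clu and Cldn11, at mean log2 values of 13.96 and 12.56 in controls. Wt1, the next brightest of the list, was at 9.86. For 7 Leydig markers the sum spanned 11234 to 16752, 11445 to 13565 and 18145 to 26334, with 2 risen (Hsd11b1 and Cyb5a), and the block added Star and Insl3. Lhcgr of this list went the other way, at -0.60. It did not pass the limma test (adjusted p = 0.137, and 0.0511 with the block). For 6 peritubular markers the sum spanned 4920 to 5177, 4943 to 5280 and 5499 to 7199, with 1 risen (Myl9, log2 change 0.84). The peritubular members did not go one way: Acta2 was at -0.13, Cnn1 at -0.22 and Myh11 at -0.39, the list median was 0.07, and the block called Des higher (0.80) and Myh11 lower. For 4 endothelial markers it spanned 641 to 737, 544 to 769 and 979 to 1025, with 0 past the test by limma and 2 at an unadjusted p under 0.05, while the block called 1 higher (Esam). For 5 round spermatid markers the sum spanned 34780 to 39361, 35634 to 40576 and 22720 to 25079, with 3 fallen (Tssk2, Crem and Camk4), and all 5 fell with the block, which added Acrv1 and Acr. For 9 elongating spermatid markers it spanned 191967 to 290497, 199628 to 260159 and 132572 to 195999, with 4 fallen (Prm2, Akap4, Fscn3 and Cabs1). All 9 fell with the block, which added Prm1, Tnp1, Tnp2, Odf1 and Smcp at -0.47 to -0.38. Both red cell markers rose (Hbb and Alas2), and of 5 spermatocyte and 3 spermatogonial markers 0 passed the test, with 1 of each at an unadjusted p under 0.05, while the block called 0 and 1 (Uchl1, higher). The part of these markers in the rise of Tgfb3, or in any other change given here, was not tested.

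The rest of the pathway was read from lists of 101 other genes, of which 92 had a probe set of their own and 78 were tested, 1 probe set per gene. These lists, and that of the junction genes below, were also chosen with earlier results of these data known. Their counts beside the shares of all genes are therefore a description. At 4 d, 8 of the 78 rose (10.3%, against 7.63% of all 11241 genes) and 2 fell (2.56%, against 5.19%). A fit that blocks on the run called 18 higher and 4 lower, where it called 15.3% and 11.9% of all genes. These shares of all genes at 4 d also stand beside the counts of each list below. The median log2 change of the 78 was 0.22, beside 0.03 over all genes. The count of 8 fell to 5 without control 1, 4 d 1 or 4 d 2, and to 1 without run 1 and 4 without run 2. At 8 h, 0 of the 78 rose and 0 fell by limma (0.0801% and 0% of all genes), while 6 had an unadjusted p under 0.05 (773 of all 19785 probe sets). With the block 0 rose and 0 fell as well, where 53 of all 19785 probe sets rose and 2 fell.

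Of 7 other ligands 1 rose, Bmp6, a bone morphogenetic protein, which read 247, 245 and 203 in controls, 248 and 107 at 8 h, and 649, 643 and 399 at 4 d. All 4 d arrays were above all others, with a log2 change of 1.15 (SE 0.28, adjusted p = 0.0286), and its other probe set rose too (1.32). Inhbb, which encodes a subunit of activin B and inhibin B, was 397, 451 and 506 in controls and 290, 320 and 320 at 4 d, a log2 change of -0.49 that passed the test with the run as a block (adjusted p = 0.0199) and not without it (0.0724).

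Of 8 other receptors 1 fell, Acvr2a, a type II receptor for activin. It read 755, 872 and 752 in controls, 654 and 652 at 8 h, and 563, 505 and 535 at 4 d, so the groups did not overlap, with a log2 change at 4 d of -0.54 (SE 0.13, adjusted p = 0.0287). Amhr2, the receptor of anti-Mullerian hormone, gave 0.41, past the threshold with the run as a block (adjusted p = 0.0136) and not without it (0.0666).

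Among 15 genes that hold, release or bind the ligands outside the cell, 3 rose and 0 fell, and 8 rose with the run as a block, with a list median of 0.58. Fstl3, a follistatin-like protein that binds activin, read 709, 589 and 498 in controls, 500.4 and 497 at 8 h, and 1328, 1212 and 1762 at 4 d (log2 change 1.21, SE 0.18, adjusted p = 0.00297). Fbn1, a microfibril protein to which latent TGF-beta complexes attach, read 278, 213 and 304 in controls, 284 and 260 at 8 h, and 727, 533 and 798 at 4 d (1.27, SE 0.19, adjusted p = 0.00365). Bgn, biglycan, a matrix proteoglycan that can bind TGF-beta, read 572, 462 and 555 in controls and 1223, 850.1 and 1418 at 4 d (1.06, SE 0.19, adjusted p = 0.00766). In each of these genes every 4 d array was above every control and 8 h array, and the block added Ltbp1 (0.73), Dcn (0.94), Fst (0.63), Mmp2 (0.60) and Fstl1 (0.44). Dcn, decorin, and Bgn are matrix genes of peritubular and interstitial cells as well as TGF-beta binders.

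Inside the cell, 1 of 19 other Smads and cofactors passed the test. Ppm1a, a phosphatase known to act on Smad2 and Smad3, read 3755, 3750.0 and 2576 in controls, 2878 and 2036 at 8 h, and 1771, 2234 and 936 at 4 d. It fell by 1.08 on the log2 scale (SE 0.29, adjusted p = 0.0467), with -1.07, -0.74 and -1.43 within the runs. Smad1, a carrier of bone morphogenetic protein signals, gave 1.11 (SE 0.34, adjusted p = 0.0687), and passed the test with the run as a block (adjusted p = 0.000770), as did Skil (0.27) and Wwp1 (-0.46). Of 12 genes of the kinase branch 0 passed the test by limma at 4 d, and 2 had an unadjusted p under 0.05 (4498 of all 19785 probe sets). Mapk14, the p38 kinase through which Tgfb3 is known to act on the Sertoli barrier, had the smallest p of that list. It read 517, 393 and 645 in controls, 520 and 590.1 at 8 h, and 728, 700.2 and 828 at 4 d, a log2 change of 0.53 (SE 0.18, adjusted p = 0.105, and 0.0120 with the run as a block, which also added Rhoa at 0.39).

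Of 17 known target genes 4 rose and 0 fell. Timp1, an inhibitor of metalloproteases, rose from 646, 856 and 1308 in controls to 13304, 10729 and 18825 at 4 d, with 1230 and 1741 at 8 h (log2 change 3.90, SE 0.27, adjusted p = 8.08e-05). Id3 and Id2, inhibitors of DNA binding that respond above all to bone morphogenetic proteins, rose by 1.03 (SE 0.17, adjusted p = 0.00513) and 0.96 (SE 0.24, adjusted p = 0.0340). Col3a1, a fibrillar collagen, rose by 1.15 (SE 0.27, adjusted p = 0.0242), from 783, 631 and 1520 in controls to 2360, 1863 and 1998 at 4 d. The other 13 gave values between -0.16 and 0.70 and did not pass the test, among them Ccn2 at 0.32 (adjusted p = 0.353). At 8 h the smallest p of this list was that of Ccn2, a matricellular protein, with 463, 394 and 489 in controls and 787 and 1058 at 8 h (log2 change 0.98, SE 0.21, adjusted p = 0.278). At 8 h, 4 of the 17 target genes had an unadjusted limma p under 0.05 (773 of all 19785 probe sets), all higher and none past the test. They were Ccn2, Id3 (0.76, adjusted p = 0.433), Junb (0.83, adjusted p = 0.411) and Timp1 (0.68), while Id2 was at -0.47. Map2k3, a kinase upstream of p38, read 562, 528 and 745 in controls and 1125 and 1070 at 8 h (0.83, SE 0.17, adjusted p = 0.253). Both 8 h arrays were above the controls for Ccn2 and Map2k3, and neither passed the test. In the other lists at 8 h the smallest p were those of genes that did not pass either. Itgav, an integrin subunit that helps release latent TGF-beta, read 197, 116 and 77.2 in controls and 262 and 229 at 8 h, without overlap (0.84, SE 0.31, adjusted p = 1.00, and 0.98 on its other probe set). Inhbb and Acvr2a were below the controls on both 8 h arrays, each at -0.27. Nedd4l, a ubiquitin ligase, was at 0.43 and Cdh2, N-cadherin, at 0.48, and both overlapped with the controls.

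**Figure D4:**
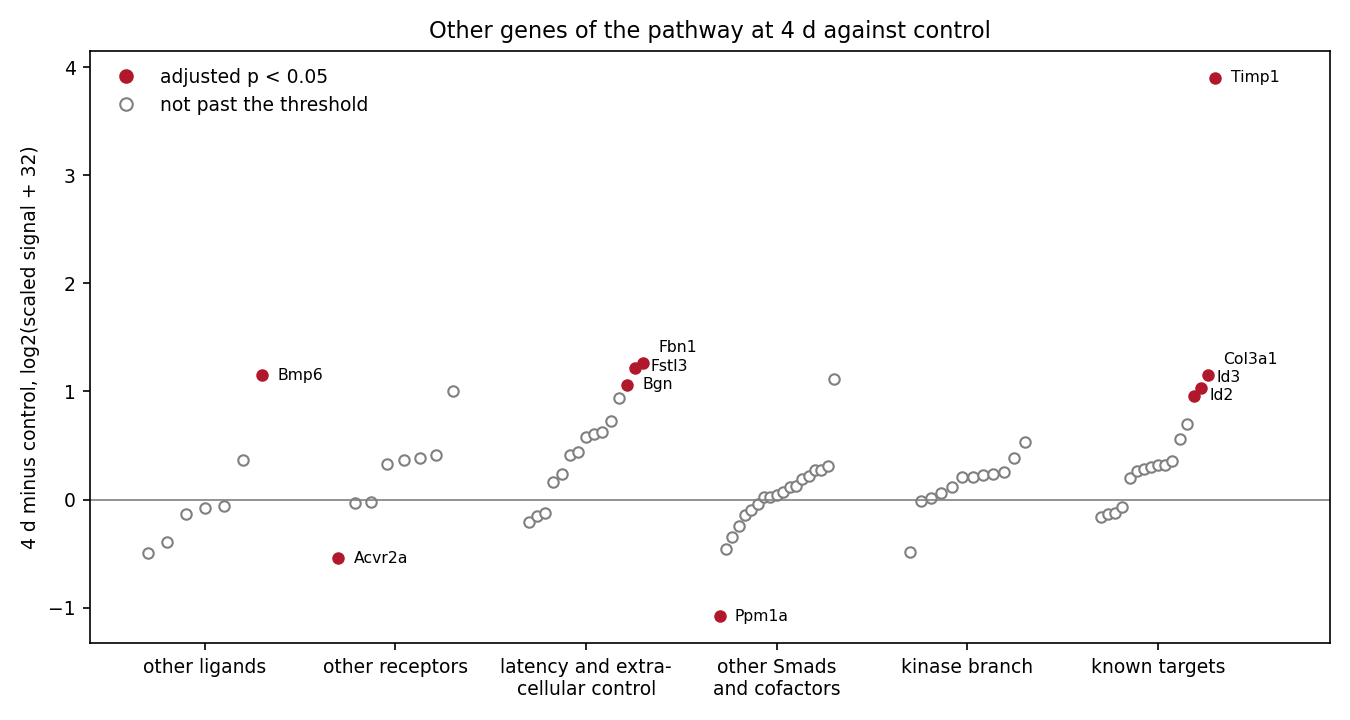
Log2 change at 4 d against control (vertical axis, difference in log2 of scaled signal plus 32) of the 78 tested other pathway genes, by list, sorted within each list, with filled points past the threshold. The 8 filled points above 0 are led by Timp1 at 3.90, and the 2 below 0 are Acvr2a at -0.54 and Ppm1a at -1.08.

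Genes of the Sertoli junctions, on which Tgfb3 is known to act, formed a list of 7 tested genes, of which 3 rose and 0 fell at 4 d, where 7.63% of all genes rose and 5.19% fell. Cldn5, a claudin of tight junctions also found in endothelium, read 482, 483 and 464 in controls, 461 and 359 at 8 h, and 922, 829 and 1023 at 4 d (log2 change 0.91, SE 0.15, adjusted p = 0.00486). F11r, junctional adhesion molecule A, rose by 0.83 (SE 0.17, adjusted p = 0.0138), and Cldn11, the main claudin of the barrier, rose by 0.76 (SE 0.16, adjusted p = 0.0153). The other Cldn11 probe set was at 1.02 and did not pass the test. The list median was 0.74, and 5 rose with the run as a block (15.3% of all genes), which added Cdh2 (0.74) and Ctnnb1 (0.34). The Sertoli marker sum, made up mostly of Clu and Cldn11, was also higher on every 4 d array, and its part in these rises was not tested.

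Calls near the threshold depended on single arrays. Leaving out single arrays ended the call of Ppm1a for control 1, control 2, 8 h 1, 8 h 2, 4 d 1 and 4 d 3, with adjusted p up to 0.141. Acvr2a and Col3a1 were lost without control 1, control 2 or any 4 d array, up to 0.109 and 0.0978. Bmp6 was lost without any control, 4 d 1 or 4 d 2, up to 0.118, and Id2 without control 1, control 3, 4 d 1 or 4 d 2, up to 0.133. Cldn11 was lost without control 1 or control 2, up to 0.0605, and F11r without 4 d 3, at 0.0509. The calls of Tgfb3, Fstl3, Fbn1, Bgn, Id3, Timp1 and Cldn5 at 4 d held without each single array.

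The genes whose pattern over the 8 arrays was most like that of Tgfb3, among 11240 genes with 1 probe set each, were Cdh17 (Pearson r = 0.992), Tifa (0.988) and Anxa11 (0.986). Cdh17, a cadherin, read 187, 145 and 113 in controls, 176 and 165 at 8 h, and 477, 559 and 429 at 4 d. Anxa11, an annexin, read 1214, 1231 and 1074 in controls and 1668, 1904 and 1730 at 4 d. Tifa, an adaptor protein of TRAF signalling, read 125, 108 and 55.2 in controls and 239, 281 and 263 at 4 d. As in Tgfb3, the 4 d arrays stood above the others and control 3 was the lowest control. The arrays share runs and scaling, and these correlations are a description of 8 points.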

How the data were processed

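The authors deposited 1 signal intensity per probe set and array on a linear scale, made with MAS5 per the submitters' processing notes, and the 2% trimmed mean of each array was 250. Each array was scaled to a trimmed mean of 500, and log2(signal + 32) was taken, so changes of dim genes are understated. Without 57 control probe sets, those at 100 or more on at least 2 arrays were tested with limma 3.58.1 in R 4.3.3 (lmFit, eBayes with trend) on all 8 arrays, with no block and Benjamini-Hochberg adjustment. The fit was tested on simulated data. Groups follow the sample titles, since the description field names normal testis throughout. Of the other probe sets, 20826 had 1 symbol in the platform annotation, 436 several and 9780 none, and genes were named only from the first kind. Genes of the lists were represented by their brightest probe set.

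Runs are hybridisation days in the arrays' settings files, numbered by the order of the samples, which need not be that of the dates. Run 2 used fluidics version 4 and the others version 5. Between groups, deviations from group means correlated at 0.353 to 0.507 within a run and at -0.476 to 0.246 across runs. Control and 4 d arrays that carry the same number share a run, and so are pairs. Promoters came from RefSeq (GRCr8). Every member is described, with up to 4 genes per list by size of change among those called, or, where none was called, the gene of smallest p. Genes named for the run block (Amhr2, Smad1, Skil, Wwp1, Rhoa, Ltbp1, Dcn, Fst, Mmp2, Fstl1, Ctnnb1 and markers), Inhbb at 4 d and markers making up small counts were named after their values were seen. The same holds for Id2, Id3, Junb and Timp1 at 8 h. The members and lists were chosen with earlier results of these data known. Alternatives were the pseudocount, scaling, brightness minimum, blocks, arrays fitted and arrays left out.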

Additional observations from a re-analysis of the deposited data

Results flagged for a closer look

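For 9 of the members and named genes the change at 4 d against control differed from that at 8 h by limma. This is the comparison of 4 d with 8 h, in which 3.58% of all probe sets were higher and 2.47% lower. All 9 were also called at 4 d against control, which uses the same 4 d arrays, so the difference is not separate support. The difference, 4 d minus 8 h on the log2 scale, was 0.79 for Tgfb3 (adjusted p = 0.0421), 1.56 for Bmp6 (0.0183) and 1.22 for Fbn1 (0.0118). It was 1.45 for Fstl3 (0.00389), 0.93 for Bgn (0.0333) and 3.22 for Timp1 (0.000680). For Col3a1 it was 1.65 (0.0129), for Id2 1.43 (0.0150) and for Cldn5 1.12 (0.00532). Tgfb3, Bgn, Fbn1 and Timp1 had values above 0 at both times, while Bmp6, Fstl3, Col3a1, Id2 and Cldn5 were at -0.41, -0.24, -0.50, -0.47 and -0.21 at 8 h, none past the threshold there. These are values of the brighter probe set. The other Fstl3 probe set was at 0.27 at 8 h, opposite in sign, and for Fstl3 and Fbn1 the difference passed the threshold on 1 of 2 probe sets (1.41 and 0.95 on the other). With 2 arrays at 8 h and 3 at the other times, no group was large enough to look for single arrays far from the rest.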

How the results depend on the processing

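Over 57 single changes (members and named genes) and 21 alternative settings, 1113 of 1188 values kept their direction or, for 65 of them, changed sign without passing the threshold in either setting. Another 71 were no longer past it, 4 newly passed it and 0 reversed. Most of the 57 were not past the threshold in the main fit and had no call to lose, so the 1113 does not measure how firm the calls were. All 71 losses fell on changes called in the main fit. Of the 21 settings, 12 ended the call of Ppm1a at 4 d and 0 that of Timp1. At 4 d the change of Tgfb3 ranged from 0.78 to 1.06, and its call was lost in 2 settings, those without run 1 or run 2, which were chosen after seeing the data. The call of Tgfb3 between 4 d and 8 h was lost in 12 settings. The members called higher there were 0 with equal medians, with no signal minimum and without run 1, run 2 or run 3 (0 to 1 when leaving out single arrays). With the run as a replicate block 1 member was lower between 4 d and 8 h, Smad4 1367910_at. Of the other pathway genes at 4 d, 18 were higher and 4 lower with the run as a replicate block, and 14 and 4 with the number in the titles as the block. The count lower was 1 with a pseudocount of 4, with no signal minimum and with only the groups compared. Leaving out single arrays gave 5 to 9 higher and 0 to 2 lower. Without run 1, run 2 and run 3 the counts were 1, 4 and 13 higher and 0, 0 and 1 lower, and the members higher at 4 d were 0, 0 and 1. These settings leave fewer arrays, and for the others the cause was not tested. With equal medians the median over all probe sets at 4 d went from 0.04 to -0.10 on the log2 scale, and the split from 1218 higher and 738 lower to 781 and 987, with Tgfb3 at 0.78 (adjusted p = 0.0119). The run block changed no other member's call. The low signals of Smad7, Tgfb2 and the dimmer Smad3 probe set, and groups of 2 or 3 arrays, limit what could be detected.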
